A study of Rattus norvegicus with 6 samples.

Results

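The transcripts that mark the hair cell (HC) types of the vestibular epithelium were compared between control rats and rats with subchronic ototoxicity. The 7 genes were picked by symbol from the 32883 genes of the table. Spp1, Ocm2, Vsig10l2 and Adam11 stood for type I HCs (HCI), and Anxa4, Mapt and Sox2 for type II HCs (HCII). All 7 were among the 14352 genes that passed a filter on low counts, so none was lost. The animals were male adult Long-Evans rats with no genetic modification named in the sources used here. They were 8 to 9 weeks old on reception. The 3 IDPN-4wk rats drank water holding 20 mM 3,3'-iminodipropionitrile (IDPN), a nitrile that is toxic to HCs, for 4 weeks, and the 3 control rats drank water without it. Each library came from a single rat and pooled its 2 utricles and 6 cristae, so a level is a mean over all sensory organs taken and all cells in them, and HCI and HCII were not separated. The libraries held from 13358678 to 18561991 counts and carried 1 batch label, so no values within batches could be given. The animal codes in the sample titles share a prefix among the 3 IDPN-4wk rats that no control rat has, and the controls are divided by it into 2 rats and 1. What the prefix stands for is not given in the sources used here, so it and the treatment cannot be told apart.

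HCs turn head movement into receptor potentials through the stereocilia on their apical surface. HCI are flask shaped and enclosed by a calyx, a cup-like afferent nerve ending, while HCII are cylindrical and contacted by small bouton endings. Osteopontin, the product of Spp1, and the transcription factor SOX2 are used to tell the types apart in tissue sections, and several of the 7 transcripts are not restricted to a single cell type. Oncomodulin, the product of Ocm2, is restricted to a zone of the organs and can be found in HCs of either type. Spp1 is also made by bone cells and macrophages, Mapt by neurons and Sox2 by supporting cells and glia.

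Start regions were at hand for 4 of the 7 genes and are shown because Spp1 and Ocm2 were called lower after IDPN while Anxa4 and Sox2 were not. They come from RefSeq (build GRCr8, not the Rnor6.0 build behind the counts) and run 5′ to 3′ on the gene's strand, from 250 bases before to 50 bases after the start of the gene. The windows were chr14:5619755-5620054 (minus strand) for Spp1, chr12:15700376-15700675 (plus strand) for Ocm2, which RefSeq names Ocm, chr4:120798464-120798763 (minus strand) for Anxa4 and chr2:119464881-119465180 (plus strand) for Sox2. Capitals mark the E-box letters CANNTG, the sequence bound by basic helix-loop-helix factors such as ATOH1, searched on both strands.
Spp1: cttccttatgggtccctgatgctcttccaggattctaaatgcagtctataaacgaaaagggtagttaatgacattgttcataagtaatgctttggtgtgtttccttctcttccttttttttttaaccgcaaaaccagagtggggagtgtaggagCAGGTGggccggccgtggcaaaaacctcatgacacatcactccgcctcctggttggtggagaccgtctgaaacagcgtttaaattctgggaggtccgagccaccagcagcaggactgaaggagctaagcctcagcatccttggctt
Ocm2: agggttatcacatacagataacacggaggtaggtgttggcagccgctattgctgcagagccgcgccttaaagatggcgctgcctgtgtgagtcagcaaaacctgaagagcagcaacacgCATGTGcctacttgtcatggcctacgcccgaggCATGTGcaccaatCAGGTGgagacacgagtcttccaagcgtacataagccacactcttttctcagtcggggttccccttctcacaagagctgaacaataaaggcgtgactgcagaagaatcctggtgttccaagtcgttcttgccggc
Anxa4: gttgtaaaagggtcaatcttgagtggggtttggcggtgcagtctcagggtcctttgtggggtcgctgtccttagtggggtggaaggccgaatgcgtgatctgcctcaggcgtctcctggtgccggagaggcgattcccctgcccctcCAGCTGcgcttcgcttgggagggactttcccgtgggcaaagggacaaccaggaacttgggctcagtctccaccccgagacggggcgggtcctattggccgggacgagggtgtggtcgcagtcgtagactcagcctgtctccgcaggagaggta
Sox2: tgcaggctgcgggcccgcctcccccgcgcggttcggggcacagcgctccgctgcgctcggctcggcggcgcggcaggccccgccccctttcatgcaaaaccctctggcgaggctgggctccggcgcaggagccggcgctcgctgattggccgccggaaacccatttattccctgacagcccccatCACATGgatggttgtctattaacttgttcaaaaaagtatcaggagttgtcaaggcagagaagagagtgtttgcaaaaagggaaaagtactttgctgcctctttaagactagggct
The E-box letters stood 3 times in the Ocm2 window and 1 time in each of the others. Of 33469 RefSeq start windows of this length, 72.1% held the motif at least 1 time, so its presence does not set these genes apart. TATAAA was found in the Spp1 window alone, and 14.2% of all windows held it. CCAAT was found in the Ocm2, Anxa4 and Sox2 windows and in 37.5% of all windows, and GGGCGG was found in the Anxa4 and Sox2 windows and in 33.1% of all windows. These 3 motifs were also searched on both strands and overlapped no E-box in the windows shown. Vsig10l2, Adam11 and Mapt were not matched in the set of start regions at hand, which does not show that RefSeq lacks them.

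The first comparison asked how each type I marker changed. Spp1, Ocm2, Vsig10l2 and Adam11 were all lower in IDPN-4wk rats, by factors from 1.85 to 8.17. Their 3 IDPN-4wk libraries lay below their 3 control libraries without overlap. All 4 passed the edgeR quasi-likelihood test with Benjamini-Hochberg adjustment over all genes tested (Padj under 0.05 and a fold change over 1.5), where 6.62% of all genes tested were called lower, and groups without overlap in that direction were seen in 19.3% of all genes tested. The median of their log2-Fold changes was -2.06, beside 0.02 over all genes tested. The study drew its downregulated genes partly from these samples and names all 4 of these markers or their products among them, so their direction is not independent evidence.

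Spp1 (ENSRNOG00000043451) codes for osteopontin, a secreted phosphoprotein that binds calcium and integrins. Levels are given in CPM, the counts relative to the TMM-scaled total of the library, and they were 4078, 5042 and 4435 CPM in control replicates 1 to 3. In IDPN-4wk replicates 1 to 3 they were 1029, 1162 and 1619 CPM. The highest treated library was thus well below the lowest control library. The means were 4518 ± 488 CPM in control and 1270 ± 310 CPM after IDPN (SD, 3 rats per group), which left 28.1% of the control level. This was a log2-Fold change of -1.83 (SE 0.15, 95% interval from -2.16 to -1.50, edgeR Padj 3.66e-05). Spp1 was an abundant transcript, taking from 0.394% to 0.481% of all counts in control libraries, where it was the 16th, 11th and 14th most abundant gene. In IDPN-4wk libraries its share was from 0.107% to 0.166% and its position 68th, 53rd and 36th.

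Vsig10l2 (ENSRNOG00000055680), which the table lists under a clone name and which codes for a protein with immunoglobulin domains, had the lowest log2-Fold change of the 7 genes. Its levels were 437, 491 and 409 CPM in the control libraries. They were 41.6, 46.3 and 75.8 CPM in the IDPN-4wk libraries. All treated rats therefore kept from 9.33% to 17.0% of the control mean. The log2-Fold change was -3.03 (SE 0.19, 95% interval from -3.45 to -2.61, edgeR Padj 8.48e-06), an 8.17-fold lower level. Ordered from the lowest log2-Fold change upwards, Vsig10l2 was at position 52 of the 14352 genes, Adam11 at 108, Spp1 at 187 and Ocm2 at 758.

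Adam11 (ENSRNOG00000002753) codes for a membrane protein of the disintegrin and metalloprotease family that lacks protease activity and organises synaptic contacts in the cerebellum. Control libraries held 718, 805 and 682 CPM. IDPN-4wk libraries held 96.4, 99.2 and 255 CPM. The treated rats thus fell into a pair of near equal values and a single rat, replicate 3, well above them and still far below the controls. The log2-Fold change was -2.29 (SE 0.31, 95% interval from -2.98 to -1.61, edgeR Padj 6.10e-04), a 4.90-fold lower level. Without IDPN-4wk replicate 3 the difference was 7.58-fold (log2-Fold change -2.92), so its size rested on that rat, while its call did not (edgeR Padj at most 0.00416 over the 6 fits that each left out 1 library).

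Ocm2 (ENSRNOG00000001031) codes for oncomodulin, a small calcium buffer of the parvalbumin family. Levels were 50.6, 51.2 and 61.5 CPM in control and 29.0, 27.5 and 31.7 CPM in IDPN-4wk libraries. The groups did not overlap, and the treated rats were close to one another, at 50.5% to 58.3% of the control mean. For Ocm2 the log2-Fold change was -0.89 (SE 0.11, 95% interval from -1.12 to -0.66, edgeR Padj 2.79e-04). Ocm2 thus kept 54.0% of its control level, the largest share among the type I markers. It was the only one of the 4 that was not called when the fold change of 1.5 itself was tested (edgeR glmTreat, Padj 0.0527).

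IDPN-4wk replicate 3 had the highest level of the treated rats for each of the 4 type I markers. Relative to the control mean, its levels were 35.8% for Spp1, 58.3% for Ocm2, 17.0% for Vsig10l2 and 34.7% for Adam11. The same rat was not the highest of its group for Anxa4, Mapt or Sox2.

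**Figure D1:**
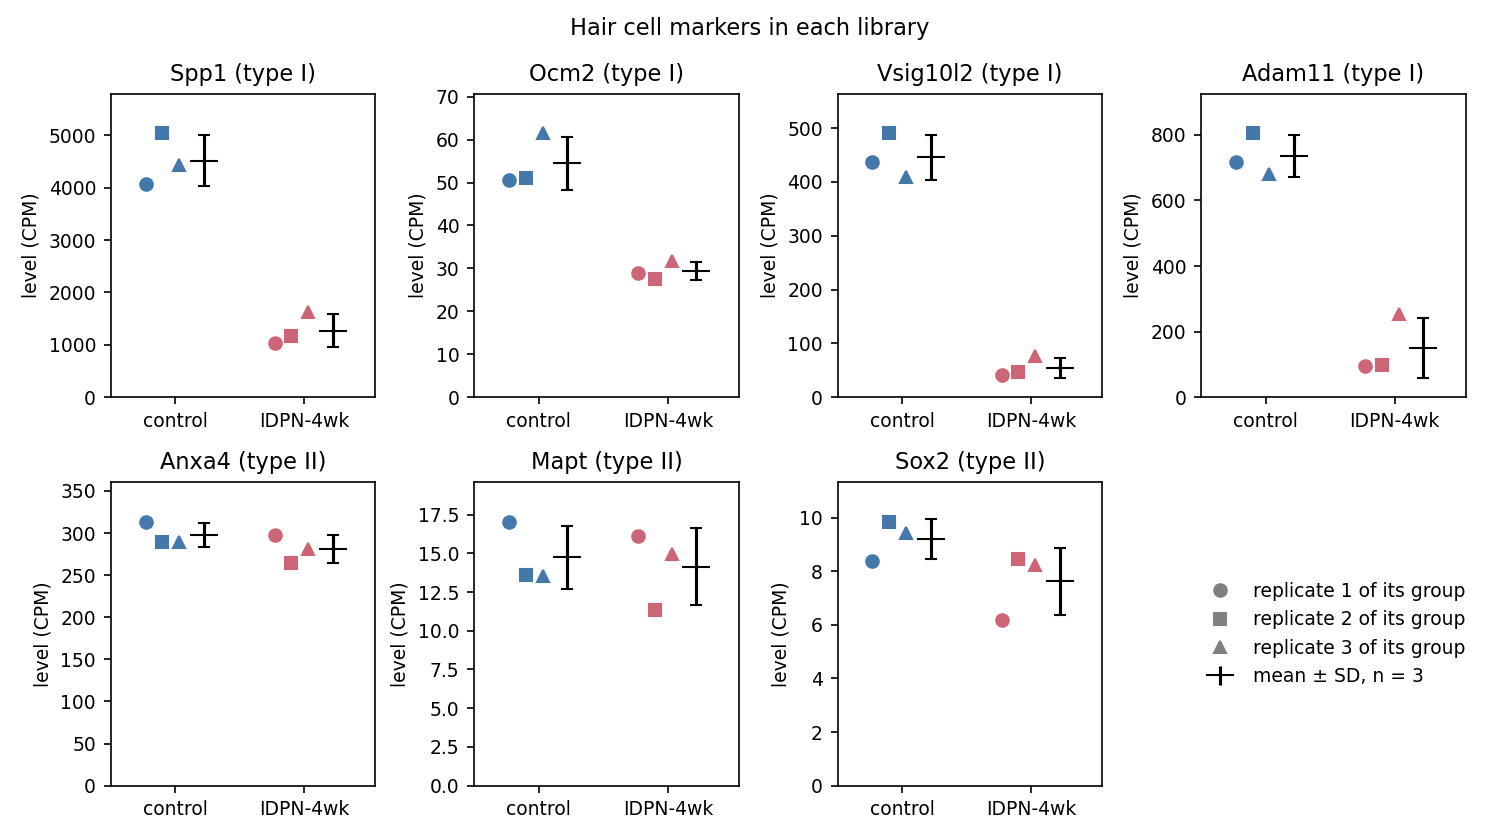
Level (CPM, linear axis from 0, a separate scale for each gene) of the 4 type I and 3 type II markers in each of the 3 control and 3 IDPN-4wk libraries, with the group mean and SD as a black cross. The groups are apart for Spp1, Ocm2, Vsig10l2 and Adam11 and overlap for Anxa4, Mapt and Sox2.

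The next comparison asked the same of the type II markers. Anxa4, Mapt and Sox2 had slightly lower means after IDPN, at 94.6%, 95.9% and 82.7% of control. For each of them the libraries of both groups overlapped, while 5430 of the 14352 genes tested had no overlap in either direction. None passed the edgeR test, where 9.71% of all genes tested were called in either direction. None had an unadjusted p under 0.05 in edgeR, which 4744 of the 14352 genes had. DESeq2 and limma-voom called none of the 3 either. Most genes tested thus also overlapped and had no such p. With 3 rats per group these results do not show that the transcripts were unchanged, and the intervals below give the changes that the data allow.

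Anxa4 (ENSRNOG00000018159) codes for an annexin, a protein that binds phospholipid membranes in the presence of calcium. Its levels were 314, 289 and 289.8 CPM in control and 298, 265 and 281 CPM in IDPN-4wk libraries. The replicates of both groups lay close together, with means of 297 ± 14.0 and 281 ± 16.4 CPM (SD, 3 rats per group). Its log2-Fold change was -0.08 (SE 0.07, 95% interval from -0.24 to 0.08, edgeR Padj 0.490), which made Anxa4 the type II marker with the narrowest interval. Its interval did not reach the threshold of 1.5-fold (0.58 on the log2 scale) in either direction.

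Mapt (ENSRNOG00000005133) codes for tau, a protein that binds microtubules. Levels were low, at 17.0, 13.6 and 13.5 CPM in control and 16.1, 11.3 and 14.9 CPM in IDPN-4wk libraries, from 191 to 264 counts per library. Both groups spanned a similar range. The log2-Fold change was -0.07 (SE 0.17, 95% interval from -0.44 to 0.30, edgeR Padj 0.821). Its sign was not stable, being positive without TMM scaling (0.04) and when control replicate 1 (0.05) or IDPN-4wk replicate 2 (0.07) was left out.

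Sox2 (ENSRNOG00000012199) codes for a transcription factor needed to form the sensory patches, which HCII and supporting cells keep in the adult. It was the least abundant member in CPM, with 8.39, 9.85 and 9.41 CPM in control and 6.18, 8.46 and 8.24 CPM in IDPN-4wk libraries, from 86 to 164 counts per library. The groups overlapped by 1 value, the second IDPN-4wk rat lying just above the lowest control. Sox2 had a log2-Fold change of -0.27 (SE 0.19, 95% interval from -0.68 to 0.14, edgeR Padj 0.347). That interval reaches past a 1.5-fold decrease, so a fall of that size is not excluded by these data. The part of Sox2 that came from supporting cells was not tested. Of 15 supporting cell markers, 4 were called lower and 0 higher, beside 6.62% and 3.09% of all genes tested. The 15 log2-Fold changes had a median of -0.33 and ran from -0.97 (Otog) to 0.39 (Gfap), with 11 of them below 0. Their summed level ranged from 13472 to 14990 CPM in control and from 8030 to 9588 CPM in IDPN-4wk libraries. Otog made up the largest part of this sum, with means of 6262 CPM in control and 3199 CPM after IDPN, so the sum does not stand for the list as a whole.

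**Figure D2:**
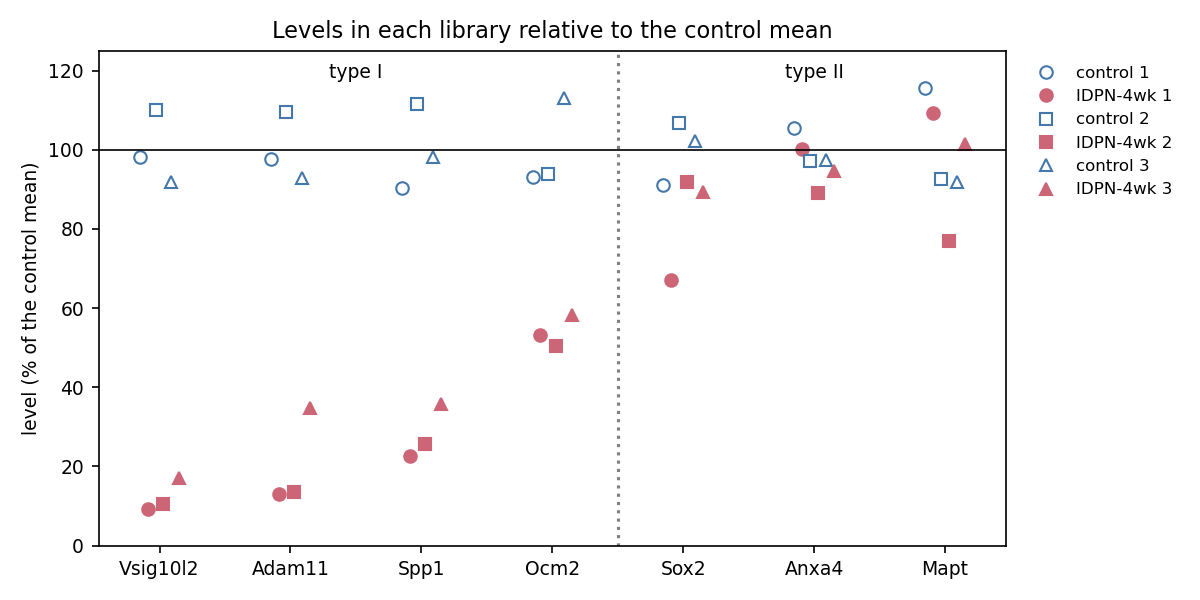
Level of each of the 7 markers in each library as a percentage of the gene's control mean (linear axis from 0; open symbols, control; filled symbols, IDPN-4wk; the horizontal line is the control mean). Treated libraries lie between 9.33% and 58.3% for the type I markers and between 67.1% and 109% for the type II markers.

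A change that is called in one marker and not in another does not show that the markers differ, so the difference itself was tested. In each library the log2 level (log2 CPM with a prior count of 2) of a type II marker was subtracted from that of every other gene, and this log2 ratio was compared between groups with limma, with Benjamini-Hochberg adjustment over all genes. A ratio within a library does not depend on how libraries are scaled. Its absolute size also depends on the length of each gene and was not read. All 12 pairs of a type I with a type II marker had lower ratios in the IDPN-4wk rats, and in all 12 the groups did not overlap. Non-overlap in that direction was seen in 12.8% of all genes relative to Anxa4, 8.40% relative to Mapt and 5.96% relative to Sox2. The limma test called 10 of the 12 pairs lower, where 4.89%, 4.10% and 3.13% of all genes were called lower relative to Anxa4, Mapt and Sox2. The markers were chosen with earlier results of these data known, so the lower ratios are not independent evidence. Calb2, a further type II gene that fell (log2-Fold change -2.16, given below), was not used as a reference.

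The 2 pairs not called were those of Ocm2 with Mapt and with Sox2. The ratio of Vsig10l2 to Anxa4 was 1.39, 1.70 and 1.41 in control and 0.140, 0.175 and 0.269 in IDPN-4wk libraries. It changed by -2.99 on the log2 scale (95% interval from -3.58 to -2.41, limma Padj 0.00288), a 7.96-fold lower ratio. The ratios of Vsig10l2 to Mapt (-3.01, limma Padj 9.09e-08) and to Sox2 (-2.79, limma Padj 1.34e-05) fell by similar amounts. For Spp1 the change was -1.77 relative to Anxa4 (95% interval from -2.28 to -1.27, limma Padj 0.00749), -1.79 relative to Mapt and -1.57 relative to Sox2. These Spp1 and Vsig10l2 ratios were called in each of the 6 fits that left out 1 library. The fall in both markers was thus larger than that of any of the 3 type II markers.

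Adam11 changed by -2.36 relative to Anxa4 (95% interval from -3.27 to -1.46, limma Padj 0.0168), -2.38 relative to Mapt and -2.16 relative to Sox2. With each library left out in turn, the first of these was called 1 time in 6, in the fit without IDPN-4wk replicate 3 (-2.82), with limma Padj up to 0.0658 in the others, and the ratio to Sox2 was not called without IDPN-4wk replicate 1 (limma Padj 0.0532). The direction held in every such fit. Ocm2 changed least, by -0.80 relative to Anxa4 (95% interval from -1.13 to -0.48, limma Padj 0.0200), -0.82 relative to Mapt (95% interval from -1.36 to -0.27, limma Padj 0.0709) and -0.60 relative to Sox2 (95% interval from -1.08 to -0.13, limma Padj 0.0986). The ratio to Anxa4 was called when control replicate 1 or IDPN-4wk replicate 3 was left out, and not when any of the other 4 libraries was (limma Padj up to 0.0693). The ratio to Mapt was called without control replicate 1 (limma Padj 0.0469).

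With 3 rats against 3, a two-sided exact permutation test of a single pair cannot give a p under 0.1, and all 12 pairs were at that value. The limma result depends on sharing the estimate of the spread over genes, and the choice of reference matters to it. With the type I gene as the reference in place of the type II gene, an alternative added after the values were seen, the changes were the same and 12 of the 12 pairs were called. This is no finer test, since 97.2%, 83.9%, 99.4% and 97.8% of all genes were called higher relative to Spp1, Ocm2, Vsig10l2 and Adam11.

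**Figure D3:**
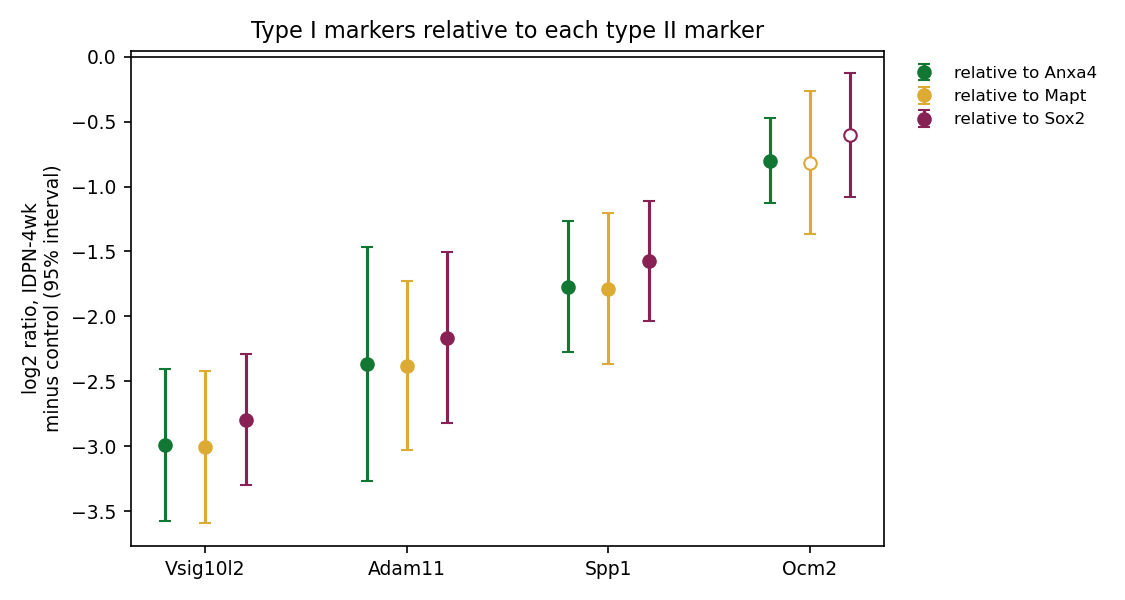
Change of each type I marker relative to each type II marker (log2 ratio, IDPN-4wk minus control; points, limma estimates; bars, 95% intervals; filled points, Padj under 0.05). All 12 points lie below 0, from -0.60 for Ocm2 relative to Sox2 to -3.01 for Vsig10l2 relative to Mapt.

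Within a type, the same test asked whether markers moved together, in pairs added after the values were seen. Among the type II markers no ratio was called. Mapt relative to Anxa4 changed by 0.01 (95% interval from -0.31 to 0.34, limma Padj 0.956), Sox2 relative to Anxa4 by -0.20 (95% interval from -0.65 to 0.25, limma Padj 0.519) and Sox2 relative to Mapt by -0.21 (95% interval from -0.80 to 0.37, limma Padj 0.841). The last of these turned to 0.03 without IDPN-4wk replicate 1. Anxa4 and Mapt varied alike from rat to rat (Pearson r of 0.90 over the 6 libraries), whereas Sox2 varied against both (r of -0.20 with Anxa4 and -0.45 with Mapt) and had an r of 0.67 to 0.77 with the 4 type I markers. These values are given as a description of 6 libraries that share their 2 groups.

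The type I markers did not fall equally. Both orders of each of their 6 pairs were fitted, with the larger limma Padj given here. Vsig10l2 fell more than Spp1 (log2 change of the ratio -1.22, limma Padj 0.00118), with ratios of 0.107, 0.0973 and 0.0922 in control and 0.0404, 0.0399 and 0.0468 in IDPN-4wk libraries. Vsig10l2 (-2.19, limma Padj 7.72e-04), Adam11 (-1.56, limma Padj 0.00342) and Spp1 (-0.97, limma Padj 0.00192) all fell more than Ocm2. These 4 pairs did not overlap between groups. Relative to Spp1, 0.530% of all genes were called lower and 0.467% were lower without overlap, and relative to Ocm2 these shares were 1.85% and 1.80%. In those fits the limma Padj was 1.02e-04 for Vsig10l2 to Spp1 and 0.00232 for Adam11 to Ocm2. The larger values printed above for these 2 pairs had Vsig10l2 and Adam11 as the reference, where 99.4% and 97.8% of all genes were called higher.

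The order of Adam11 among them was not settled. Its ratio to Spp1 changed by -0.59 with overlapping groups (limma Padj 0.267), and was called without IDPN-4wk replicate 3 (-0.86, limma Padj 0.00146). Vsig10l2 relative to Adam11 changed by -0.63 without a call (limma Padj 0.238), although the groups did not overlap, as for 0.202% of all genes lower relative to Adam11. It changed by -0.43 without IDPN-4wk replicate 3 (limma Padj 0.0154). The values without that library are for the first gene of each pair over the other as reference.

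The markers were then set beside Myo7a, the gene of an unconventional myosin of the stereocilia that both HC types express. Myo7a itself fell (log2-Fold change -0.64), to 162 ± 19.9 CPM from 252 ± 17.7 CPM (SD, 3 rats per group), as did Pou4f3, an HC transcription factor, by less than the fold threshold (-0.51). Relative to Myo7a, Vsig10l2 changed by -2.43 (limma Padj 7.09e-04), Adam11 by -1.80 (limma Padj 0.00390) and Spp1 by -1.21 (limma Padj 0.00295). These 3 markers thus fell by more than Myo7a in the same libraries, where 2.88% of all genes were called lower relative to it. Ocm2 changed by -0.24 relative to Myo7a, with overlapping groups and no call (95% interval from -0.60 to 0.12, limma Padj 0.183). Relative to Pou4f3 its change of -0.37 was called (limma Padj 0.0306), where 3.70% of all genes were called lower. Relative to the summed level of the general HC genes it changed by -0.14, with overlapping groups and no call (limma Padj 0.449). In whole-tissue counts, fewer cells of a type and less RNA of a gene per cell cannot be told apart, and this holds for every fall given here. The study counted HCs in separate rats of this exposure and reports a limited loss. It also reports less Vsig10l2 RNA per HC and weaker osteopontin label in HCI. Neither was tested here.

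Relative to Myo7a the type II markers were higher, by 0.56 for Anxa4 (95% interval from 0.18 to 0.94, limma Padj 0.0178), 0.57 for Mapt (95% interval from 0.10 to 1.05, limma Padj 0.0355) and 0.36 for Sox2 (95% interval from -0.01 to 0.73, limma Padj 0.0689). The groups did not overlap for any of the 3, as for 72.6% of all genes in that direction. Since Myo7a itself fell, 69.8% of all genes were called higher on this scale, so 2 of 3 type II markers called higher is close to what the whole table gave. Relative to the summed level of the general HC genes, Sox2 was called as well (0.46, limma Padj 0.0364), where 77.1% of all genes were called higher. Both calls were also lost in most fits that left out a library: Anxa4 was called only when control replicate 1 or IDPN-4wk replicate 3 was left out, and Mapt only when control replicate 1 or IDPN-4wk replicate 2 was.

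Other genes tied to the HC types were listed for context. Of 6 further type I genes, all picked by the study partly on these samples and so no independent evidence, all 6 were called lower, beside 6.62% of all genes tested, and their median was -1.96. They ran from Kcnab1, a potassium channel subunit (-3.55), over Bmp2 (-2.17), Fbxw7 (-2.05), Atp2b2, the calcium pump of the stereocilia (-1.87), and the neurotrophin gene Bdnf (-1.39) to Chgb (-0.60). Calb2 codes for calretinin, a calcium buffer found in HCII and in some calyces. Unlike Anxa4, Mapt and Sox2, it was at 16.9, 22.3 and 18.9 CPM in control and at 5.10, 4.02 and 3.86 CPM in IDPN-4wk libraries, without overlap (log2-Fold change -2.16, edgeR Padj 3.66e-05). Of the 4 genes here labelled type II, therefore, 1 was called lower. Of 32 general HC genes, 16 were called lower and 0 higher, beside 6.62% and 3.09% of all genes tested, with a median of -0.68, between the medians of the type I and type II markers. That list holds genes, Myo7a among them, that the study names as downregulated partly from these samples. Its counts are therefore no independent evidence either. They ranged from -3.09 (Pcdh15), below every type I marker, to 0.16 (Tmie), so falls as large as those of the type I markers were not limited to them.

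**Figure D4:**
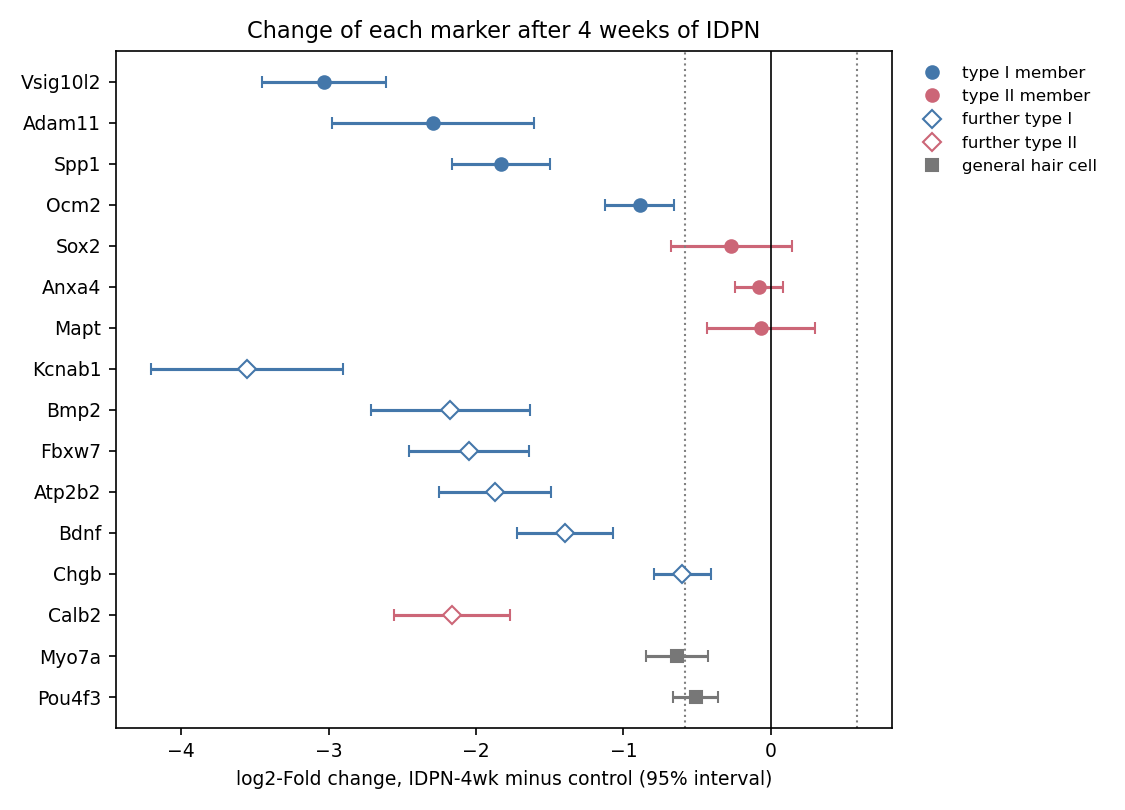
Log2-Fold change (IDPN-4wk minus control; bars, 95% intervals from edgeR) of the 7 markers, 6 further type I genes, Calb2, Myo7a and Pou4f3, with dotted lines at a 1.5-fold change in either direction. The type I markers lie from -0.89 to -3.03 and the type II markers from -0.07 to -0.27, while Calb2 lies at -2.16.

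Relatives of the markers were read beside them, since estimated counts of similar genes can share reads. Parvalbumin (Pvalb), the relative of oncomodulin, fell together with Ocm2, from 23.7 ± 3.33 to 10.7 ± 1.06 CPM (SD, 3 rats per group; log2-Fold change -1.14, edgeR Padj 4.29e-04). No relative of Spp1 among the bone matrix proteins was called. Dmp1 was at a similar level in both groups (log2-Fold change 0.17, edgeR Padj 0.686), and Ibsp, Mepe and Dspp were under 1 CPM in every library. Neither Vsig10 (-0.04) nor Vsig10l (0.34) was called beside the fall of Vsig10l2, and neither Adam22 (-0.31) nor Adam23 (-0.95), both at low levels, beside that of Adam11. Of 9 annexins tested other than Anxa4, 3 were called higher and 0 lower, beside 3.09% and 6.62% of all genes tested, and the change was largest in Anxa1, which rose from 1385 to 3058 CPM (log2-Fold change 1.14, edgeR Padj 9.48e-05). Map2 (-0.32) and Map4 (-0.28) were not called beside Mapt.

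Cells outside the HC class that can make these transcripts were followed by their own markers, and their counts stand beside 6.62% of all genes tested called lower and 3.09% called higher. For Spp1, 11 macrophage markers had 0 called lower and 1 higher (C1qb, 0.71), with a median of -0.08 and a summed level of 284 to 358 CPM in control and 212 to 388 CPM in IDPN-4wk libraries, which overlapped. Of 7 osteoblast markers, 5 were tested and 1, Col1a1, was called higher (0.74). The bone markers Ibsp and Bglap were under 1 CPM in every library, and the summed level was 97.3 to 132 CPM in control and 121 to 171 CPM in IDPN-4wk libraries. In neither list was a marker called lower. For Mapt, 9 of 10 neuronal markers were tested, of which 3 were called lower and 2 higher, from Gap43 (-4.43) to Prph (2.57). Their summed level was 126 to 136 CPM in control and 81.9 to 86.2 CPM in IDPN-4wk libraries, without overlap. Of 8 Schwann cell markers 2 were called lower (median -0.55), and of 9 markers in a mixed list of dark and transitional cell genes with the pigment cell genes Tyr and Pmel 3 were (median -0.60). What share these cells had in the levels of Mapt, Sox2 and Anxa4 was not tested.

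The genes whose levels ran most like those of each marker were found by the Pearson r of log2 CPM over the 6 libraries, among genes of at least 10 CPM on average. As the libraries fall into 2 groups, a high r mostly reflects the same direction between the groups, and none of these values was tested. For Vsig10l2 they were Vwa3a, Cdk14 and Dock1 (r from 0.9988 to 0.9999). For Spp1 they were Car12, Lsamp and St3gal5 (r of 0.999 each). Adam11 ran most like Kcna10, Xirp2 and Ulk4 (r from 0.997 to 0.998), of which Kcna10 codes for an HC potassium channel and Xirp2 for an actin-binding protein of stereocilia. Ocm2 ran most like Gad2, Rnd3 and Etl4 (r from 0.995 to 0.997). From 361 to 550 genes had an r over 0.95 with a type I marker, but 23 with Anxa4, 22 with Sox2 and 9 with Mapt. The closest genes were Clybl, Ckap5 and Ddx28 for Anxa4, Uba6, Skap2 and Zfp709 for Mapt, and Ndrg4, Sox13 and Adgrg1 for Sox2 (r from 0.980 to 0.992).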

How the data were processed

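RNA of pooled utricles and cristae from 3 control and 3 IDPN-4wk rats was made into libraries with an oligo-dT primed SMART-seq2 protocol. The authors mapped paired-end reads to Rnor6.0 with STAR and estimated counts per gene with RSEM (versions 2.5.3a and 1.3.0 in the submitters' processing notes). The deposited values are these expected counts, which were whole numbers, so that rounding changed none. RSEM divides reads shared by similar genes, and the protocol keeps no strand, so overlapping and similar genes are less certain. Reads carried no molecular identifiers. Vsig10l2 was read from the clone-named row that the study equates with it.

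Groups were taken from the treatment label, and replicates, which the labels do not number, were numbered in accession order. Each library is a separate rat. The 7 markers and all gene lists were chosen with earlier results of these data known. Genes were named by a rule: the 7 markers, the listed further type I genes, Calb2, Myo7a, Pou4f3, the listed relatives, the extremes of a list and the 3 genes most like each marker. Bglap was named after its values were seen.

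Low genes were removed by filterByExpr (at least 10 counts, 15 in total). TMM factors set the library sizes, and groups were compared in edgeR 4.0.16 (glmQLFit, glmQLFTest) in R 4.3.3, with Benjamini-Hochberg adjustment over 14352 genes and a fold threshold of 1.5. SE and intervals were taken from the quasi F statistic. Ratios within a library were compared with limma 3.58.1 (eBayes, two-sided), 1 fit for each reference gene. All genes of such a fit share the noise of that reference, and eBayes treats the spread they share as known more exactly than 6 libraries allow. DESeq2 1.42.0, limma-voom, other scalings, other filters, another prior count (0.5), other references and leaving out each library were alternatives. A count of 0 allows up to 3 counts, from 0.155 to 0.216 CPM by library. Start regions came from RefSeq (GRCr8) and matched 4 of the 7 markers by symbol or older symbol. No coordinate of the counts' build was used.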

Additional observations from a re-analysis of the deposited data

How the results depend on the processing

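The 4 type I markers were called lower and the 3 type II markers were not called under DESeq2 size factors, upper quartile scaling, library size alone, no filter, a mean count filter, DESeq2 and limma-voom, and in all 6 fits that left out 1 library. With glmTreat, Ocm2 was no longer called (-0.89, edgeR Padj 0.0527). Over the 8 alternatives the log2-Fold change ranged from -1.85 to -1.72 for Spp1, -0.90 to -0.78 for Ocm2, -3.08 to -2.92 for Vsig10l2 and -2.45 to -2.19 for Adam11. With a library left out it ranged from -2.06 to -1.71, -0.96 to -0.79, -3.35 to -2.88 and -2.92 to -2.06, lowest for each without IDPN-4wk replicate 3. Anxa4 (0.0282) and Mapt (0.0415) turned positive with library size alone. Leaving out a library gave -0.18 to 0.0709 for Mapt, -0.12 to 0.0458 for the ratio of Anxa4 to Mapt and -0.44 to 0.0301 for that of Sox2 to Mapt, which all changed sign without being called.

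The pairs of a type I with a type II marker called lower numbered 10 with limma, 7 to 10 with a library left out (7 without IDPN-4wk replicate 1), and 0 with the exact permutation test, whose smallest p is 0.1. Likewise the type I markers called lower relative to Myo7a numbered 3 with limma, 3 in every fit with a library left out, and 0 with the permutation test. The type II markers called higher relative to Myo7a numbered 2 with limma, 0 with the permutation test, 1 with no filter, and 0 to 2 with a library left out, being 0 without control replicate 2, without control replicate 3 or without IDPN-4wk replicate 1. Sox2 relative to the summed general HC genes was called (0.46, limma Padj 0.0364), where 77.1% of all genes were higher. The cause of these changes was not tested, other than the limit of the permutation test, which its construction sets. Apart from the permutation test, 139 of 147 recomputed values of single genes and ratios under alternatives, and 182 of 210 with a library left out, kept their direction and call.

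No paired analysis was made, since control and IDPN-4wk libraries came from separate rats and the labels name no pairs. Sox2 (86 to 164 counts per library) and Mapt (191 to 264) had the fewest counts of the 7 markers, and every result rests on 3 rats per group. Counting error and the spread between rats were not separated.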
